A study of Rattus norvegicus with 22 samples.

Results

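Treadmill exercise in normoxia was followed in the gastrocnemius, the large calf muscle, of obese rats. The comparison set the libraries of normoxia exercise rats (MCE, n = 3) against those of normoxia quiet rats (MC, n = 3), which made 6 of the 22 libraries of the series. It was made over nuclear genes, that is, every gene outside the mitochondrial genome, and of 32586 nuclear genes 12237 had enough counts to be tested. All rats were male Sprague Dawley rats, bought at 3 weeks of age and made obese with high-fat feed, and the labels name no transgene or deletion. MCE rats breathed 21% oxygen and ran on a treadmill at up to 25 m/min for up to 60 min per day on 5 days per week over 4 weeks. MC rats breathed the same air and stayed in their cages for the same 4 weeks. The muscle of hypoxic quiet (MH, n = 3) and hypoxia exercise rats (MHE, n = 3), both of which breathed air low in oxygen and the second of which ran at up to 20 m/min, is given beside these values. All groups were kept from feed for 12 h before sampling, and training began in the late afternoon. The sources do not give the hour of killing per group or the time since the last run, so training, the last bout and the time of day cannot be told apart. The methods of the study count as many rats as libraries, so each library is taken here as 1 rat, although the labels tie no library to a rat.

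Running changes muscle transcripts on several time scales. A single bout is known to switch on immediate-early genes such as Fos, Egr1 and Myc and the Nr4a nuclear receptors within hours, while weeks of training are known for more mitochondria, more fat oxidation and a shift of fibre type. Muscle also holds a circadian clock, in which the factors encoded by Arntl and Clock switch on the Per, Cry and Nr1d genes and the output gene Dbp, and the PER, CRY and REV-ERB proteins then act back on the factors that made them.

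The libraries held 27149905 to 43834953 counts in MC and 38832699 to 42647943 in MCE, but mitochondrial genes took most of them. Their share was 93.5% ± 3.28 (SD, n = 3) in MC and 93.7% ± 2.64 (SD, n = 3) in MCE, and the groups overlapped (exact permutation test, two-sided, p = 1.0, smallest possible 0.1). Nuclear genes were left with 1032959 to 4230171 counts in MC and 1452338 to 3306531 in MCE, which sets the precision of all values below. CPM are counts per 1000000 nuclear counts after TMM scaling (a factor per library that balances most genes). Acta1, which encodes skeletal muscle actin, was the most abundant nuclear gene with a usual symbol, at 14507 to 36470 TPM of the nuclear total over the 6 libraries, and the 12 muscle fibre markers tested summed to 44017 to 107260 CPM. MC2 and MCE2 stood apart from the other 4 libraries of these groups on the first principal component (57.4 and 62.3, against -13.5 to -7.33). Each had the fewest nuclear counts of its group, 1032959 in MC2 and 1452338 in MCE2, and the highest mitochondrial share, 96.9% and 96.6%. Both also had little of Rn60_1_2212.4, a short transcript with a clone-style name, at 227 and 144 TPM of the nuclear total against 57348 to 128827 in the other 4. Values without MC2 and MCE2 are given below for several results.

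Dbp was the 1 gene of 12237 (0.00817%) that passed the test for MCE against MC at an adjusted p under 0.05, by edgeR's quasi-likelihood test with Benjamini-Hochberg adjustment over all genes. The fit took all 12 muscle libraries, so the 6 hypoxia libraries shared in its estimate of the spread. Dbp encodes a transcription factor that carries clock signals to other genes, and in the deposited table it lies on the plus strand of chromosome 1 from 101687855 to 101692846. It stood at 28.0, 35.5 and 27.3 CPM in MC1, MC2 and MC3 and at 113, 399 and 194 CPM in MCE1, MCE2 and MCE3. Every MCE library lay above every MC library, and the MCE libraries differed more among themselves than the MC libraries did. Dbp rose 7.81-fold, a log2 fold change of 2.97 with an SE of 0.37 (adjusted p = 0.0164 from edgeR), and one of 2.36 was left without MCE2 (adjusted p = 0.00506 from edgeR) and one of 2.47 without MC2 and MCE2 (adjusted p = 0.0295). The call was lost without MC1 (adjusted p = 0.175 from edgeR), without MC2 (adjusted p = 0.125) and without MC3 (adjusted p = 0.279), and also when the MC and MCE libraries were fitted alone (log2 2.96, adjusted p = 0.784), while DESeq2 called it at 2.2e-12. As in all results from whole muscle, fewer cells of a type and less RNA per cell cannot be told apart.

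Every other gene had an adjusted p of 0.9999 or more from edgeR in this comparison, so the other genes below are described by their levels, with no call. Before adjustment, 249 genes (2.03%) were higher and 138 (1.13%) lower in MCE at an unadjusted p under 0.05. In 542 genes (4.43%) all 3 MCE libraries lay above all 3 MC libraries, and in 460 (3.76%) all lay below. Of all genes tested 6211 had a positive log2 fold change, with a median of 0.01, which the TMM scaling holds near 0. MCE2 held the highest MCE value in 124 of the 249 higher genes (49.8%) and the lowest in 63 of the 138 lower genes (45.7%). DESeq2 called 6 genes, among them Dbp, Nr1d2, Enc1, Ciart and Cxcl1. Cxcl1, a chemokine gene named here after its values were seen, had 0 counts in every MC library and 6, 44 and 22 counts in MCE1, MCE2 and MCE3, which puts its mean at least 33.5-fold higher in MCE against a floor of 3 counts over the MC group. Without MCE2, which had the highest level of the 3, it was at least 11.1-fold higher. Both bounds cover counting error in MC only and not the spread among libraries. With so few counts they are no measure of size.

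The genes next to Dbp in the clock had low unadjusted p-values but did not pass the test. Of 16 core clock genes tested, 6 were higher (Nr1d2, Nr1d1, Ciart, Per1, Per2 and Per3) and 2 lower (Cry1 and Arntl) at an unadjusted p under 0.05, against 2.03% and 1.13% of all genes. The median of the list was -0.10, near the 0.01 of all genes, since the members lay on both sides of 0, and it was 0.02 without MC2 and MCE2. Clock itself, the partner of Arntl, had a log2 fold change of -0.30 (SE 0.49) and Cry2 of -0.10.

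Among the clock's repressors, Nr1d1, which encodes the heme receptor REV-ERBα, stood at 174, 118 and 73.5 CPM in MC and at 227, 364 and 254 CPM in MCE, with no overlap (log2 1.21, SE 0.30). Its relative Nr1d2 stood at 80.7, 113 and 63.6 CPM in MC and at 200, 162 and 200 CPM in MCE (log2 1.14, SE 0.23). Both genes were thus a little over 2-fold higher in MCE, at 2.32-fold and 2.20-fold. Per1, whose protein is an inhibitor of the clock, stood at 6.72, 40.4 and 29.4 CPM in MC and at 73.6, 101 and 68.2 CPM in MCE (log2 1.69, SE 0.46). Per2, its relative, stood at 10.6, 12.8 and 16.8 CPM in MC and at 21.4, 23.9 and 24.3 CPM in MCE (log2 0.76, SE 0.28). Per3 had a log2 fold change of 1.34 with an SE of 0.37 (chosen after its values were seen). None of the 3 Per genes overlapped between the groups, while 4.43% of all genes were higher without overlap. Per1 had been chosen partly for that. Ciart, the gene of a repressor of the CLOCK and BMAL1 pair, had only 4, 0 and 0 counts in MC and 18, 56 and 22 counts in MCE. With so few counts its fitted log2 fold change of 4.67 (SE 1.19) depends on the prior count of the fit and is no measure of size.

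The 2 core clock genes that were lower at an unadjusted p under 0.05 have different roles, and neither passed the test. Arntl, which encodes the activator BMAL1, stood at 53.2, 57.1 and 72.1 CPM in MC and at 37.5, 8.96 and 22.5 CPM in MCE (log2 -1.37, SE 0.52). Cry1, whose protein represses CLOCK and BMAL1 with PER, stood at 39.8, 23.6 and 24.6 CPM in MC and at 10.3, 11.2 and 5.54 CPM in MCE (log2 -1.72, SE 0.40). Neither gene overlapped between the groups, while 3.76% of all genes were lower without overlap. MCE2 held the lowest Arntl value as well as the highest Dbp value. Among 13 clock output genes 11 had a positive log2 fold change, with a median of 0.66, and 4 were higher at an unadjusted p under 0.05 (2.03% of all genes). These were Dbp, Tef, Wee1 and Tsc22d3. Tef encodes a factor of the same family as Dbp (log2 0.77, SE 0.25). Wee1 is the gene of a mitotic kinase (log2 0.98, SE 0.37), and Tsc22d3 that of a glucocorticoid-induced leucine zipper protein (log2 0.97, SE 0.41). Of these 4 only Tsc22d3 overlapped between the groups, while 4.43% of all genes were higher without overlap. The median was 0.24 without MCE2 and 0.42 without MC3.

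**Figure D1:**
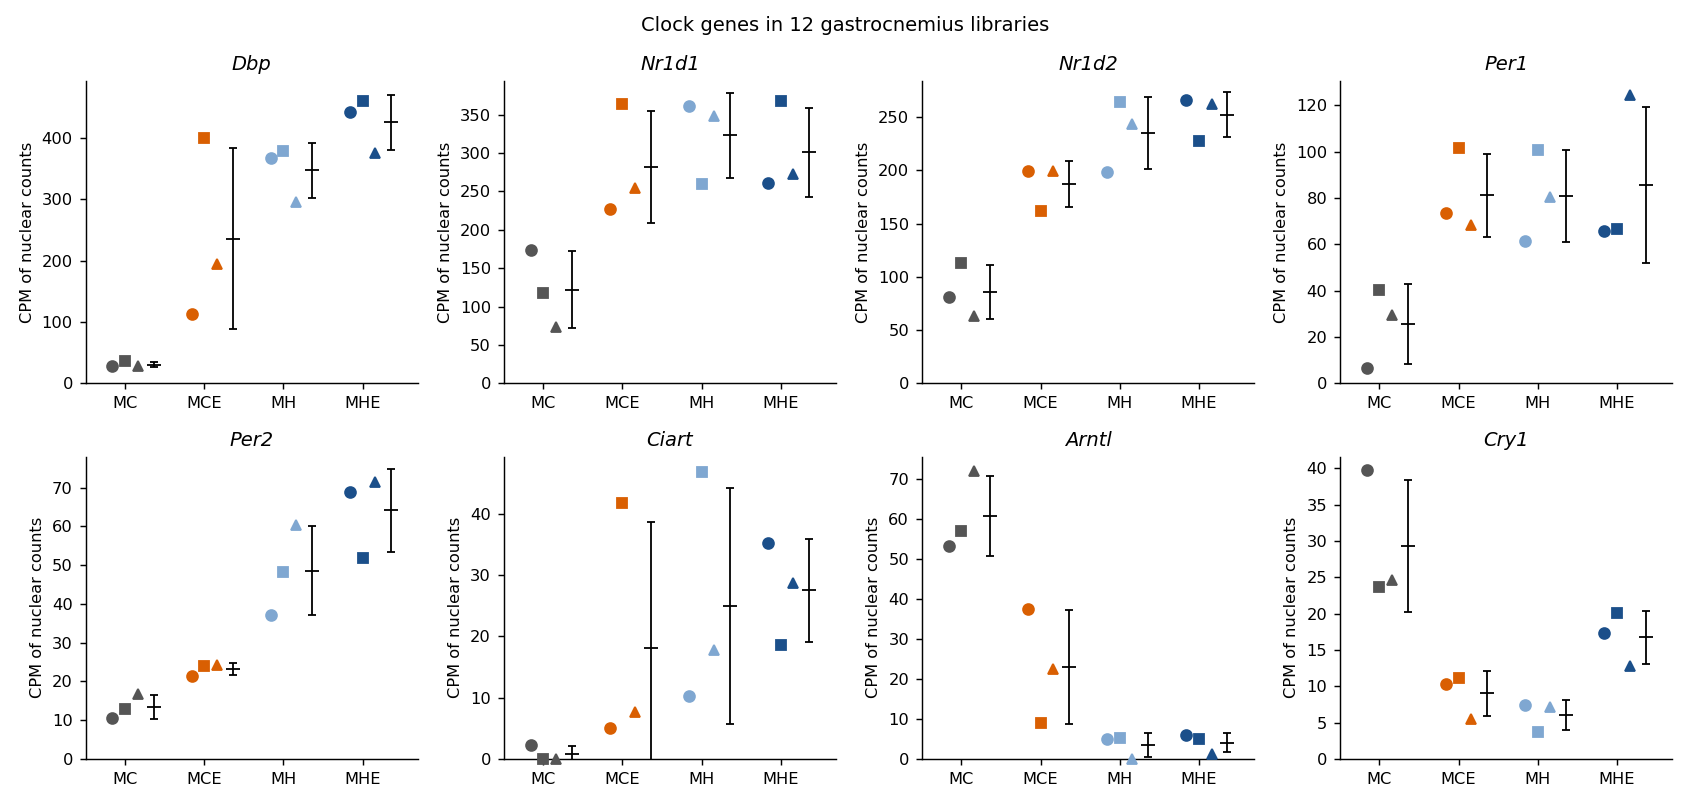
Normalised level (CPM of nuclear counts, linear axes from 0) of 8 clock genes in the 12 gastrocnemius libraries. Circles, squares and triangles are libraries 1, 2 and 3 of each group, and black marks give the mean and SD. In Dbp, both Nr1d genes and both Per genes the 3 MC libraries lie below all others, and in Arntl and Cry1 they lie above all others.

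For 4 of these genes the sequence around the start site is shown, since the textbook clock acts through short motifs there. They are Dbp, which passed the test, and the only 3 of 12 core clock genes with a sequence at hand whose window held a motif searched, so they were chosen for it. The sequences are from RefSeq (build GRCr8), run 5′ to 3′ along the gene from 250 bases before its start to 50 bases after, and have capitals where a motif occurs. Motifs were searched on both strands, as the E-box CACGTG (bound by CLOCK and BMAL1), the D-box TTATGTAA or TTACGTAA (bound by DBP and its family) and the RORE core TAGGTCA (bound by REV-ERB and ROR receptors).
Dbp, chromosome 1, 105312006 to 105312305, plus strand: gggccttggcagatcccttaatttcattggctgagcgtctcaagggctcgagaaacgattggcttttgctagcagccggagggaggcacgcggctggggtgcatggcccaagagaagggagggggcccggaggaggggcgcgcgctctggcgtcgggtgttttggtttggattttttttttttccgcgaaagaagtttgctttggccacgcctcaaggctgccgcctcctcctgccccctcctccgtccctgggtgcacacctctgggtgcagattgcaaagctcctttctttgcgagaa
Ciart, chromosome 2, 186112197 to 186112496, minus strand: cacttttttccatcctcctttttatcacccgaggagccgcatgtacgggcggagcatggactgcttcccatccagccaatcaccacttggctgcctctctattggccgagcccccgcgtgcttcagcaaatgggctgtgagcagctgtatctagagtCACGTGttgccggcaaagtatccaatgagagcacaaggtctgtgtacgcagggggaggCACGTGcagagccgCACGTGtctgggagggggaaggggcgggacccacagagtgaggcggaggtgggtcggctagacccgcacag
Per2, chromosome 9, 99496944 to 99497243, minus strand: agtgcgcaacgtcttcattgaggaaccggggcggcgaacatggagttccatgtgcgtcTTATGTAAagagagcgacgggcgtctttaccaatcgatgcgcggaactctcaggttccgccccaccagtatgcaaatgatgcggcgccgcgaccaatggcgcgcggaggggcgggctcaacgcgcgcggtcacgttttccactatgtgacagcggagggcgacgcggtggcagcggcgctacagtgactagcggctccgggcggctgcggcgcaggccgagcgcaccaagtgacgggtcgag
Arntl, chromosome 1, 176766078 to 176766377, plus strand: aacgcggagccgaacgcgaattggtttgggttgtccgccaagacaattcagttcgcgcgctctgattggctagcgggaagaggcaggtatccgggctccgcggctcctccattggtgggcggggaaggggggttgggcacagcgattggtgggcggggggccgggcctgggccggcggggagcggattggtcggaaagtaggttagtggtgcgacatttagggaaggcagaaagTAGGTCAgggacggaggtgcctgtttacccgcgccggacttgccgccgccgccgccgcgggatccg
The window of Ciart held 3 E-boxes, 93, 35 and 21 bases before the start, that of Per2 held 1 D-box 192 bases before it, and that of Arntl held 1 RORE core 16 bases before it. The window of Dbp held none of these letters, nor did those of the other 9 core clock genes, among them Nr1d1, Nr1d2, Per1 and Per3. Of 9 windows of clock output genes 5 held a motif, 4 of them the E-box (Tef, Bhlhe40, Bhlhe41 and Pfkfb3) and 1 the D-box (Coq10b). Among 27457 rat promoters of the same length, 6.65% held the E-box, 1.01% the D-box and 2.6% the RORE core, and among the 8859 of genes tested here 9.28%, 0.64% and 1.81% did. Only these exact letters were searched, so a window without a match can still hold another spelling of a motif. A match is a description of the letters, and no site was tested here.

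The hypoxia groups place these differences. In Dbp the MH libraries stood at 367, 379 and 295 CPM and the MHE libraries at 442, 460 and 375 CPM, so that the 3 MC libraries lay below all 9 other muscle libraries. Such a pattern, MC below all 9 others, was seen in 112 genes (0.915%), and MC above all 9 others in 68 genes (0.556%). It was seen in 6 core clock genes that were lower in MC (Ciart, Nr1d1, Nr1d2, Per1, Per2 and Per3), in 2 that were higher (Arntl and Cry1) and in the output genes Dbp, Tef and Wee1. MCE libraries stood above all 9 others in 32 genes (0.262%) and below them in 26 (0.212%), with no core clock or output gene among these. In Arntl, for example, MH stood at 4.96, 5.35 and 0 CPM and MHE at 5.89, 5.02 and 1.28 CPM, and the MCE libraries lay between those and MC.

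Beyond the clock, the genes with the smallest p among those at a mean of 20 CPM or more and higher in every MCE library included 11 described here, namely Dbp, Nr1d2, Enc1, Myc, Nr1d1, Atf6, RT1-Bb, Errfi1, Per1, Cebpd and Sirpa. Their log2 fold changes ran from 1.14 to 2.97, and none but Dbp passed the test. In 10 of the 11, all but RT1-Bb, the MC libraries lay below all 9 other muscle libraries, as they did in 20.7% of the 542 genes higher in every MCE library. The choice of these genes had already set MC below the 3 MCE libraries. Their ranking by p also favours genes with low MC values. The 542 genes were not ranked by p or held to a level, so the shares are not like for like.

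Enc1, which encodes an actin-binding kelch protein, stood at 21.3, 20.7 and 42.9 CPM in MC and at 71.9, 210.4 and 73.4 CPM in MCE (log2 2.0, SE 0.44). Atf6, the gene of a sensor of unfolded protein in the endoplasmic reticulum, stood at 13.4, 5.91 and 12.6 CPM in MC and at 41.9, 20.9 and 25.6 CPM in MCE (log2 1.42, SE 0.36). Of 22 tested genes that answer unfolded protein or stalled translation, 11 were positive, with a median of 0.05 that ran from -0.04 without MC3 to 0.25 without MC2. Sirpa, a receptor gene of macrophages and neurons, stood at 19.6, 11.8 and 14.2 CPM in MC and at 31.9, 25.4 and 43.7 CPM in MCE (log2 1.14, SE 0.32).

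**Figure D2:**
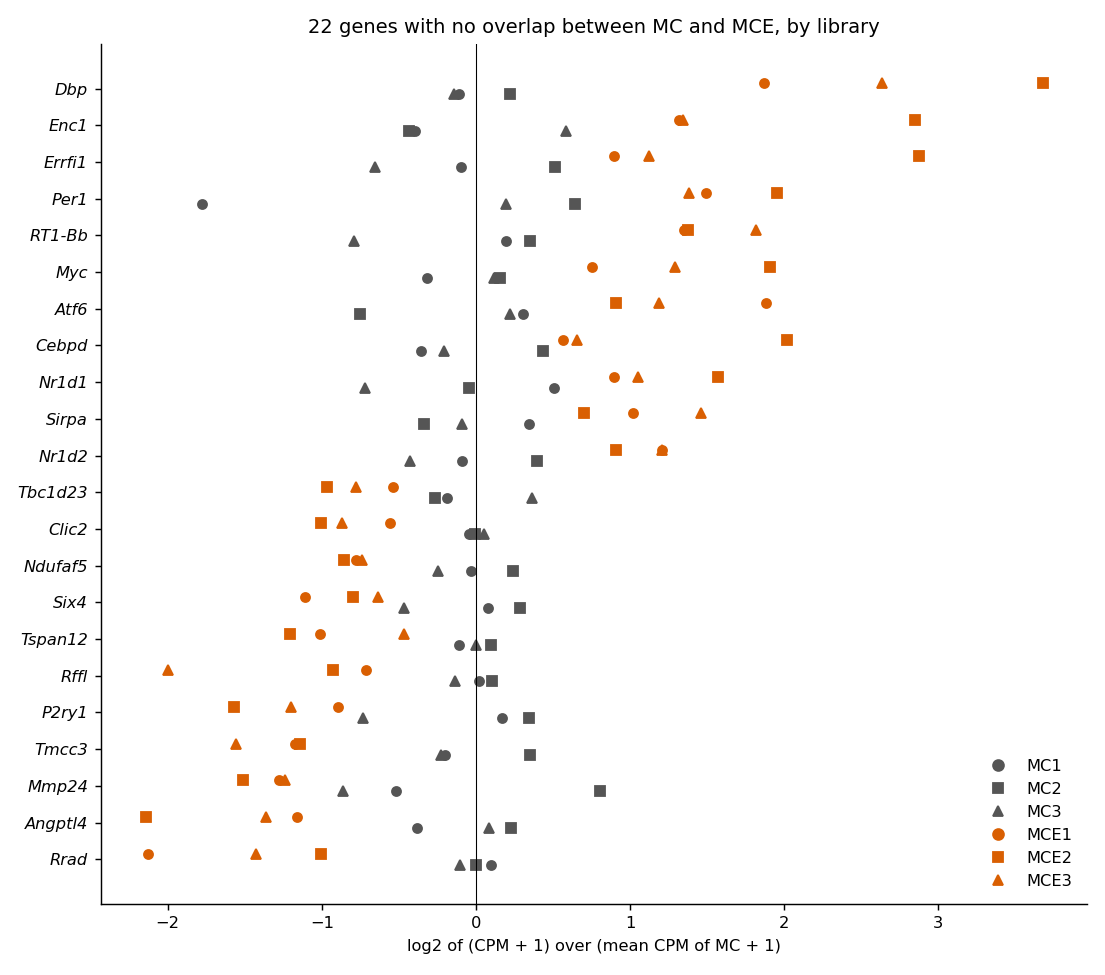
Level of each MC (grey) and MCE (orange) library relative to the MC mean, as the log2 ratio of CPM with a pseudocount of 1, for 11 higher and 11 lower genes chosen by the rule on p, level and no overlap. MCE2 (orange squares) lies farthest to the right in Dbp, Enc1, Errfi1, Per1, Myc, Cebpd and Nr1d1.

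Immediate-early genes were uneven among the MCE libraries. Of 26 tested, 23 had a positive log2 fold change and 6 were higher and 0 lower at an unadjusted p under 0.05 from edgeR (2.03% and 1.13% of all genes), with a median of 0.65. Their summed level was 2591 to 2822 CPM in MC and 1817, 6778 and 4195 CPM in MCE1, MCE2 and MCE3, so that MCE1 lay below and MCE2 and MCE3 above the MC range. The median was 0.07 without MCE2, 0.25 without MC2 and MCE2 and 1.10 without MCE1. Myc, which encodes a growth factor-induced transcription factor, stood at 11.8, 16.7 and 16.3 CPM in MC and at 25.8, 59.0 and 38.1 CPM in MCE (log2 1.43, SE 0.33). Fosb, an AP-1 subunit gene, stood at 14.0, 15.8 and 13.5 CPM in MC and at 8.05, 394.8 and 30.1 CPM in MCE, and the groups overlapped. Zfp36, the gene of an mRNA decay factor, and Ier3, a stress-induced gene, also overlapped, with log2 fold changes of 1.29 (SE 0.40) and 1.19 (SE 0.38).

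The Nr4a receptors and targets of CREB, a factor that cyclic AMP and calcium activate in muscle, gave 9 tested genes, 6 of them positive and 4 higher at an unadjusted p under 0.05 (2.03% of all genes), with a median of 0.25. The 4 were Nr4a1, Nr4a3, Sik1 and Per1, the last of which is also counted in the clock. That median was 0.16 without MC1, 0.64 without MC2, 0.55 without MC3 and 0.79 without MC2 and MCE2. Nr4a3, a receptor gene known to respond to exercise, had 2, 2 and 0 counts in MC and 20, 26 and 8 counts in MCE, too few for a fold change to be read. Nr4a1 stood at 98.1, 215.8 and 71.4 CPM in MC and at 98.6, 832.8 and 207.9 CPM in MCE, and Sik1, the gene of a salt-inducible kinase, at 26.9, 22.7 and 22.04 CPM in MC and at 19.7, 124.6 and 73.8 CPM in MCE. In both genes MCE1 lay within or below the MC range. Ppargc1a, which encodes the coactivator of mitochondrial biogenesis PGC-1α, was near the limit of detection, at 6.72, 2.96 and 0.918 CPM in MC and 1.39, 0 and 6.58 CPM in MCE.

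Glucocorticoid response genes had a median shift from the MC mean of 0.53, 1.65 and 0.65 (log2) in MCE1, MCE2 and MCE3, all above the -0.24, 0.50 and -0.16 of the MC libraries. Of 19 tested, 17 had a positive log2 fold change, 9 were higher and 1, Pdk4, was lower at an unadjusted p under 0.05 (2.03% and 1.13% of all genes), and the median was 0.82, or 0.42 without MCE2. Errfi1, whose product restrains the epidermal growth factor receptor, stood at 70.6, 108 and 47.5 CPM in MC and at 142, 561 and 166 CPM in MCE (log2 1.95, SE 0.52). Cebpd, which encodes a transcription factor of the acute phase and of fat cell formation, stood at 70.6, 123 and 78.5 CPM in MC and at 135, 372 and 144 CPM in MCE (log2 1.26, SE 0.35). Ddit4, whose protein REDD1 inhibits mTORC1, stood at 21.9, 32.5 and 16.3 CPM in MC and at 50.3, 75.4 and 47.1 CPM in MCE (log2 1.32, SE 0.41), with no overlap. Errfi1 and Cebpd did not overlap either, but had been chosen partly for that. In the whole list 6 of 19 genes were higher and 1 lower without overlap, against 4.43% and 3.76% of all genes. The list shares Per1 with the clock and Tsc22d3 with the clock output, so its count is not separate from theirs.

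Of the list of uncoupling proteins and the pyruvate dehydrogenase switch, Angptl4, Pdk4 and Pdp1 were lower in every MCE library than in any MC library. These were 3 of 8 genes tested, against 3.76% of all genes. Angptl4 had been chosen partly for that, and none of the 3 passed the test. Angptl4, which encodes a secreted inhibitor of lipoprotein lipase, stood at 45.4, 69.9 and 63.1 CPM in MC and at 26.1, 12.7 and 22.5 CPM in MCE (log2 -1.51, SE 0.38). Pdk4, the gene of the kinase that shuts pyruvate dehydrogenase and so spares glucose, stood at 269, 507 and 273 CPM in MC and at 158, 182 and 93.9 CPM in MCE (log2 -1.27, SE 0.44). Pdp1, the gene of the phosphatase that opposes that kinase, stood at 80.1, 81.8 and 52.3 CPM in MC and at 44.7, 43.3 and 48.5 CPM in MCE (log2 -0.64, SE 0.26). The kinase and its opposing phosphatase thus lay on the same side. Ucp3, an uncoupling protein gene of muscle mitochondria, overlapped by a small margin, at 230, 369 and 206 CPM in MC and 161, 148.5 and 209.9 CPM in MCE (log2 -0.63, SE 0.36). The list had 3 of 8 genes lower and none higher at an unadjusted p under 0.05 (1.13% and 2.03% of all genes), with a median of -0.34. Its median turned to 0.14 without MCE1, was -0.18, -0.14 and -0.11 without MC1, MC2 and MC3, and was -0.52 without MCE2.

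Of 19 genes of fatty acid uptake and the lipid droplet, 3 were lower and 1 higher at an unadjusted p under 0.05 (1.13% and 2.03% of all genes), with a median of -0.13. The list shares Fabp4, Cidec and Lipe with the adipocyte markers, of which 2 of 13 were positive with a median of -0.72, and the part of fat cells in it was not tested. The median was -0.50 without MCE2, -0.37 without MC3 and -0.32 without MC2 and MCE2, and came to -0.03 without MC1 or without MCE3. G0s2, whose product inhibits the lipase ATGL, was at 14.0, 15.8 and 8.72 CPM in MC and at 5.83, 5.97 and 2.77 CPM in MCE, with no overlap (log2 -1.39, SE 0.54). Mgll, the gene of monoglyceride lipase, had a log2 fold change of -0.76 (SE 0.32) and overlapped, and Slc27a1, a fatty acid transporter gene, had one of 0.79 (SE 0.33) with no overlap. Lpl and Cd36, the lipase and the fatty acid transporter of muscle capillaries and fibres, had log2 fold changes of 0.08 (SE 0.36) and -0.45 (SE 0.37).

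**Figure D3:**
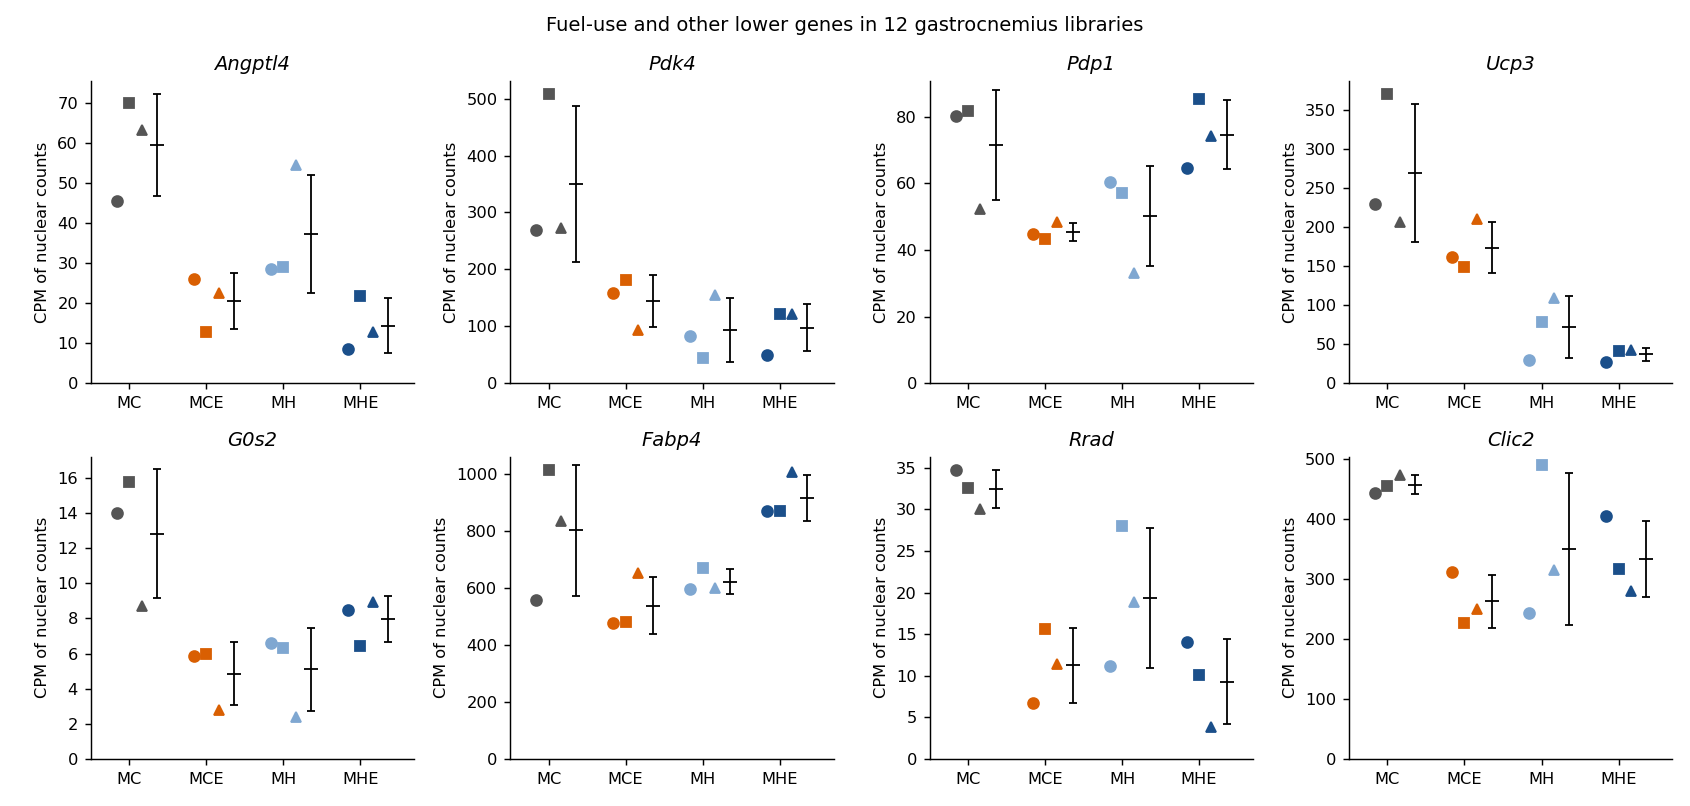
Normalised level (CPM of nuclear counts, linear axes from 0) of 8 genes in the 12 gastrocnemius libraries, with libraries 1, 2 and 3 as circles, squares and triangles and black marks for the mean and SD. Angptl4 and Rrad are lower in MCE than in MC and lower in the mean of MHE than of MH, and in Pdk4 and Rrad the MC libraries lie above all others.

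The other lower genes described from the same rule were Tmcc3, Tspan12, Rrad, Tbc1d23, P2ry1, Clic2, Mmp24, Six4, Rffl and Ndufaf5, with log2 fold changes from -1.57 to -0.77 when Angptl4 is included, and none of these 11 passed the test. Rrad, which encodes a small GTPase that inhibits voltage-gated calcium channels, stood at 34.7, 32.5 and 30.1 CPM in MC and at 6.67, 15.7 and 11.4 CPM in MCE (log2 -1.57, SE 0.46). Clic2, which encodes an intracellular chloride channel protein, stood within a narrow range of 443 to 474 CPM in MC and at 311, 227 and 249 CPM in MCE (log2 -0.80, SE 0.25). Six4, the gene of a homeobox factor of muscle development, and Ndufaf5, the gene of an assembly factor of respiratory complex I, had log2 fold changes of -0.84 (SE 0.27) and -0.80 (SE 0.26). P2ry1, an ADP receptor gene, had one of -1.20 (SE 0.36), and Mmp24, the gene of a membrane-bound metalloproteinase, one of -1.34 (SE 0.43). Tmcc3 stood at 35.3, 52.2 and 34.7 CPM in MC and at 17.5, 17.9 and 13.2 CPM in MCE, and with Mmp24 it was 1 of 2 genes among the 11 in which MCE lay below all 9 other muscle libraries. MC lay above all 9 others in Rrad and Tbc1d23.

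Of 74 nuclear-encoded genes of oxidative phosphorylation, 43 were positive and none had an unadjusted p under 0.05 by edgeR, with a median of 0.03 and quartiles of -0.09 and 0.16, against -0.23 and 0.26 for all genes. The smallest p belonged to Ndufs7, a complex I subunit gene, with a log2 fold change of 0.51 (SE 0.25). Cox8b, a subunit gene of cytochrome c oxidase in muscle, had one of 1.03 (SE 0.52), and the complex I subunit genes Ndufa7 and Ndufa3 had 0.46 (SE 0.24) and 0.50 (SE 0.34). The summed level of the list was 13629 to 19852 CPM in MC and 12077 to 23170 CPM in MCE. Fatty acid oxidation had 10 of 24 genes positive with a median of -0.09, and the tricarboxylic acid cycle 6 of 16 with a median of -0.04. No tested gene of either list had an unadjusted p under 0.05. Hk2, the gene of the inducible hexokinase of muscle, and Slc2a4, which encodes the insulin-responsive glucose transporter GLUT4, had log2 fold changes of 0.50 (SE 0.39) and 0.37 (SE 0.46). The sign of all 3 medians depended on which library was left out. That of oxidative phosphorylation ran from -0.21 without MCE2 to 0.25 without MCE1, that of fatty acid oxidation from -0.51 without MCE2 to 0.09 without MCE3, and that of the tricarboxylic acid cycle from -0.32 without MCE2 to 0.14 without MCE1. Without both MC2 and MCE2 the medians were -0.09 for oxidative phosphorylation, -0.39 for fatty acid oxidation and -0.26 for the tricarboxylic acid cycle.

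Fibre type genes varied more between libraries of a group than between groups. Myh7, the slow myosin heavy chain gene, stood at 355, 361 and 115 CPM in MC and at 5.55, 881 and 171 CPM in MCE, and the slow calcium pump gene Atp2a2 at 403, 336 and 182 CPM in MC and 71.9, 715 and 199 CPM in MCE. MCE1 was thus the lowest and MCE2 the highest of the 6 libraries in both. The 14 slow-twitch genes had a median of 0.17, which was -1.23 without MCE2, -1.21 without MC2 and MCE2 and 0.77 without MCE1. The 13 fast-twitch genes had one of 0.11, from -0.07 without MCE3 to 0.30 without MC1, and one of 0.28 without MC2 and MCE2. Myh2, the fast oxidative myosin gene, stood at 4294 to 7455 CPM in MC and 4588 to 8004 CPM in MCE. Genes of muscle wasting and growth control did not pass the test either, with log2 fold changes of 0.66 (SE 0.41) for Mstn, the gene of the growth inhibitor myostatin, -0.28 (SE 0.38) for the ubiquitin ligase gene Fbxo32 and 0.60 (SE 0.51) for the ubiquitin ligase gene Trim63. Sln, which encodes the calcium pump inhibitor sarcolipin, had one of -0.47 (SE 1.10), and Vegfa, an angiogenic growth factor gene, one of 0.26 (SE 0.30).

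Collagen and matrix genes had 18 of 27 members positive, 3 higher and 1 lower at an unadjusted p under 0.05 (2.03% and 1.13% of all genes), and a median of 0.25, which was 0.12 without MCE3 and 0.47 without MC3. Col6a2, which encodes a chain of the collagen around muscle fibres, stood at 279, 170 and 234 CPM in MC and at 334, 313 and 360 CPM in MCE, with no overlap (log2 0.56, SE 0.20). Loxl2, the gene of a collagen crosslinking enzyme, stood at 6.16, 5.91 and 7.81 CPM in MC and at 24.7, 11.2 and 12.8 CPM in MCE (log2 1.28, SE 0.46). Col5a1 had a log2 fold change of 0.69 (SE 0.32) with no overlap, and Thbs2, which encodes a matrix glycoprotein, one of -0.83 (SE 0.39) with overlap.

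Antigen presentation genes had 11 of 14 members positive, 2 of them higher at an unadjusted p under 0.05 (2.03% of all genes), and a median of 0.35, which was 0.23 without MC2 and 0.22 without MC2 and MCE2. All 13 macrophage markers were positive too, with a median of 0.46, and their part in this list was not tested. RT1-Bb, a class II histocompatibility beta chain gene of the rat, stood at 71.7, 79.8 and 35.6 CPM in MC and at 161, 163 and 222 CPM in MCE (log2 1.57, SE 0.42). Reads of such polymorphic gene families can be shared between copies, so its level is uncertain. Cd74, the class II invariant chain gene, overlapped, at 345, 277 and 703 CPM in MC and 509, 501 and 1215 CPM in MCE. Interferon response genes had 18 of 24 members positive and a median of 0.32, with Isg15, a ubiquitin-like antiviral gene, at 5.60, 0 and 7.12 CPM in MC and 20.3, 24.6 and 13.5 CPM in MCE (log2 1.99, SE 0.63). Without MCE1 the interferon median was -0.07.

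No marker of another cell type passed the test. Medians lay near 0 for markers of fibroblasts (0.06), endothelium (-0.06), tendon (0.10) and mast cells (-0.16). All 13 macrophage markers tested had a positive log2 fold change with a median of 0.46, which ran from 0.24 without MCE3 to 0.82 without MC3. Every one of them overlapped between the groups, and their summed level was 782 to 1636 CPM in MC and 1128 to 2152 CPM in MCE. C1qb and Csf1r, which encode a complement subunit and a growth factor receptor of macrophages, had log2 fold changes of 0.78 (SE 0.29) and 0.77 (SE 0.29). Adipocyte markers lay the other way, with 2 of 13 positive, 4 lower at an unadjusted p under 0.05 (1.13% of all genes) and a median of -0.72, or -0.31 without MC3. Adipoq, the adiponectin gene, stood at 25.2, 88.7 and 294.8 CPM in MC and at 64.7, 24.6 and 41.9 CPM in MCE, with MC1 inside the MCE range and MC3 far above it. Fabp4, the fatty acid binding protein gene of adipocytes and capillaries, stood at 557.5, 1012 and 832 CPM in MC and at 478, 481 and 651 CPM in MCE (log2 -0.58, SE 0.23). The summed level of adipocyte markers was 2337 to 3545 CPM in MC and 1843 to 3315 CPM in MCE, so that the groups overlapped. All 5 satellite cell markers tested (Myf5, Chrdl2, Cdh15, Sdc4 and Vcam1) were positive, with a median of 0.75 (0.66 without MC2, 1.19 without MCE1). Pax7, Calcr and Cdh4 of that list had too few counts to be tested. Of 12 smooth muscle and pericyte markers 10 were positive, with a median of 0.25 (0.02 without MCE2, 0.40 without MC2). The groups overlapped in both summed levels. That of satellite cell markers was 51.4 to 83.7 CPM in MC and 64.4 to 166.4 CPM in MCE. That of smooth muscle and pericyte markers was 836.5 to 1127 CPM in MC and 854.6 to 1172.4 CPM in MCE. Of 8 Schwann cell and nerve markers 1 was positive, with a median of -0.48, which turned to 0.26 without MC3 and was -1.35 without MCE1. The 3 erythroid markers summed to 1953 to 3548 CPM in MC and to 2734, 8206 and 4524 CPM in MCE, with Alas2, the gene of the first enzyme of heme synthesis in red cells, at 23.0, 30.5 and 30.8 CPM in MC and 31.9, 134 and 47.1 CPM in MCE. Thus MCE2, the library with the highest values in many of the genes above, also had the highest summed level of these red cell markers. Of the T cell, B cell and neutrophil lists only 2, 0 and 1 members had enough counts to be tested. The part of these cell types in the gene differences was not tested.

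**Figure D4:**
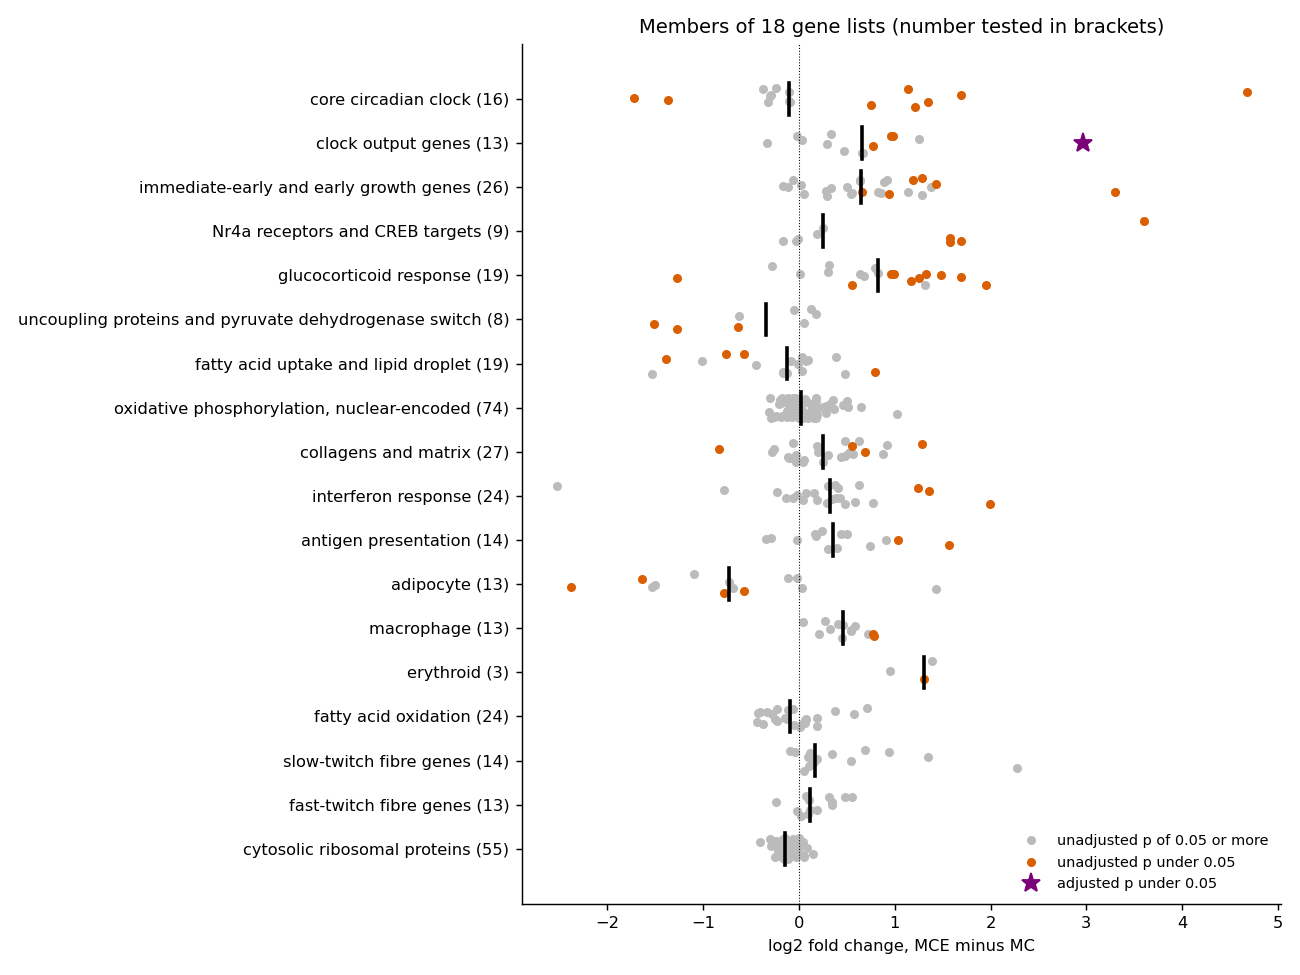
Log2 fold change of MCE against MC for every tested member of 18 gene lists, with the median of each list as a black bar and that of all genes as a dotted line. Orange points have an unadjusted p under 0.05 and the star is Dbp. Oxidative phosphorylation and ribosomal proteins lie close to 0, while the clock, the immediate-early and the glucocorticoid lists spread widely.

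In hypoxia the same genes were compared between runners and quiet rats of other libraries (MHE against MH). Of the 11 genes described as higher in MCE, 5 had a positive log2 fold change there, and of the 11 described as lower, 5 had a negative one. Of all 12237 genes tested 5877 were positive there, so the counts do not set these genes apart. Dbp had one of 0.29 (SE 0.33), Myc of -0.11 (SE 0.31), Nr1d1 of -0.10 (SE 0.29) and Per1 of 0.07 (SE 0.43). Angptl4 and Rrad were the members closest in both settings, at -1.51 (SE 0.38) and -1.32 (SE 0.40) for Angptl4 and at -1.57 (SE 0.46) and -1.03 (SE 0.46) for Rrad. Angptl4 stood at 28.5, 28.9 and 54.3 CPM in MH and 8.47, 21.9 and 12.8 CPM in MHE, without overlap. RT1-Bb lay on opposite sides, at 1.57 in normoxia and -1.39 (SE 0.41) in hypoxia, with 213, 133 and 214 CPM in MH and 26.9, 99.6 and 86.9 CPM in MHE. Cry1 did so too, at -1.72 in normoxia and 1.53 (SE 0.43) in hypoxia.

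The difference between the 2 exercise effects was itself tested. For (MHE against MH) minus (MCE against MC), edgeR called 0 of 12237 genes (0%), with 476 at an unadjusted p under 0.05, and DESeq2 called 12. The difference was -2.67 (SE 0.49, adjusted p = 0.299 from edgeR) for Dbp, -2.96 (SE 0.59, adjusted p = 0.299) for RT1-Bb, 3.25 (SE 0.59, adjusted p = 0.299) for Cry1 and 2.22 (SE 0.43, adjusted p = 0.299) for Tmcc3. All 4 genes had been named for a small p in normoxia, and the normoxia value is part of this difference. The choice thus favours large sizes here. Running speed, as read from the order in the methods, differed between the oxygen levels, so speed and oxygen cannot be told apart here. Among the lists, immediate-early genes had 5 of 26 positive in hypoxia with a median of -0.34, against 23 and 0.65 in normoxia. Cytosolic ribosomal proteins had 51 of 55 positive with a median of 0.25, against 11 and -0.14 in normoxia, and adipocyte markers 13 of 13 with a median of 1.06, against 2 and -0.72. Of all 12237 genes 5877 were positive in hypoxia, with a median of -0.02. These list differences were not tested.

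**Figure D5:**
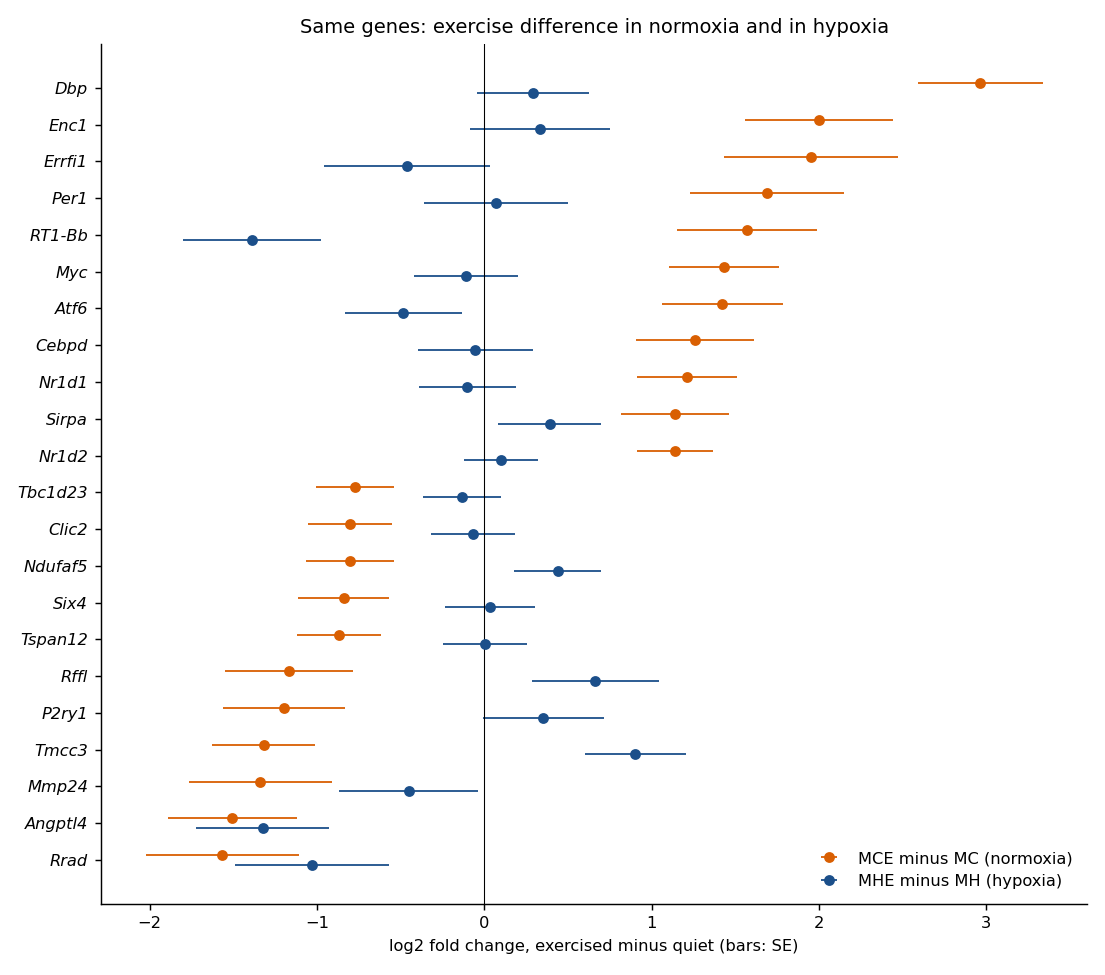
Log2 fold change of exercised against quiet rats with its SE for 22 named genes, in normoxia (orange, by which the genes were chosen) and in hypoxia (blue). Only Angptl4, Rrad and Mmp24 among the lower genes and Enc1, Sirpa and Dbp among the higher ones have a hypoxia value over 0.2 in size in the same direction.

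In epididymal fat of normoxia exercise against normoxia quiet rats (3 libraries each), the fitted log2 fold change was 1.32 for Dbp (SE 0.46, adjusted p = 0.928 in edgeR), 1.33 for Nr1d1 (SE 0.43), 0.88 for Nr1d2 (SE 0.32), 1.16 for Per1 (SE 0.58) and -1.02 for Arntl (SE 0.53). These 5 clock genes had the signs of the muscle, and none passed the test in fat. Of the 11 genes described as higher in MCE 9 were positive in fat and of the 11 lower 7 were negative, with Atf6 at -0.71 (SE 0.38) and Six4 at 1.13 (SE 0.88) among the exceptions. The 9 include Dbp, Nr1d1, Nr1d2 and Per1, given above, and no share over all genes in fat is set beside these counts. Angptl4, at 0.21 (SE 0.39), and Myc, at 0.66 (SE 0.35), did not pass the test in fat either. Fat and muscle groups bear the same names. The methods list their rats separately, but the labels tie no library to a rat, so fat and muscle libraries of the same rats were not told apart from those of different rats.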

How the data were processed

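Messenger RNA of 22 libraries was sequenced, and the 6 MC and MCE libraries of gastrocnemius are described here. FastQC and Trimmomatic are named in the submitters' notes for read filtering, HISAT2 was the aligner, and 1 table of 32623 genes was deposited. Its raw read counts were not normalized by the authors. Its TPM values were scaled by the authors for gene length and library total, mitochondrial genes included. The program that counted the reads and its strand setting are not given in the sources used here, so antisense and overlapping genes cannot be told apart. The 22 FPKM columns were not used.

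The 37 mitochondrial genes were removed, since they took 89.4% to 97.4% of the muscle counts, and CPM and TPM are given over nuclear genes. The deposited counts were tested in R 4.3.3 with edgeR 4.0.16 (filterByExpr, TMM, quasi-likelihood F test, 1 mean per group, all 12 muscle libraries in 1 fit, and a separate fit of 10 fat libraries). SE are the fold change over the root of F. A gene passed at a Benjamini-Hochberg adjusted p under 0.05. The test was tested on simulated data. Python 3.11.15, pandas 2.3.3, numpy 2.4.6, scipy 1.17.1 and matplotlib 3.10.9 were used for the rest.

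Named genes were those that passed, the 12 higher and 12 lower genes with the smallest p among genes with a mean of at least 20 CPM, a symbol and no overlap of groups, up to 4 members of smallest p per described list, the most abundant nuclear genes by TPM, and a fixed panel, of which Myh1 and Myh4 had no row under those symbols. Of the 12 in each direction, 11 are reported here. The comparison, the panel and the 48 lists were chosen with earlier results of these data known. Of the list entries, 873 matched by symbol and 17 by an older symbol. The alternatives were DESeq2 1.42.0, other scalings and filters, mitochondrial genes kept, MC and MCE alone, a replicate block, depth as a covariate and omission of each library. Omission of MC2 and MCE2 together was chosen after seeing the data. Limits of counting cover counting error only.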

Additional observations from a re-analysis of the deposited data

How the results depend on the processing

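The number of genes called for MCE against MC was 1. It was 6 with DESeq2, 2 with no filter on low counts, 0 with the MC and MCE libraries alone, and 0 to 2 when each of the 12 libraries was left out in turn. It was 1 under the other scalings and filters, with mitochondrial genes kept, with depth as a covariate and without MC2 and MCE2. The numbers of the libraries were treated as names only, since the correlations of deviations of MC and MCE libraries with the same number were -0.01, 0.25 and 0.11, not all over 0.1, against -0.23 to 0.20 for unlike numbers. MC2 and MCE2 had the highest, while MC1 and MCE1 did not correlate best with each other. With the number as a replicate block 1 gene was called (390 at an unadjusted p under 0.05), and Dbp had a log2 fold change of 2.85. The value for Dbp was 2.96 with MC and MCE alone and 2.36 to 3.32 over the omissions, with an adjusted p of 0.000491 to 0.279 from edgeR. For the difference between exercise effects the count was 12 with DESeq2, 1 with no TMM factor, 4 with no filter and 0 to 1 over the omissions. The difference in mitochondrial share, 0.11 percentage points, ran from -1.49 to 1.79 over the omissions.

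Of 81 named genes 73 kept their sign in every setting and 8 did not, all with log2 fold changes that were small or of large error. Most of the genes had been named for a small p or for no overlap of the groups, which leaves little room for a change of sign. The count is therefore no measure of how stable the results are, and the 8 all came from the fixed panel. With depth as a covariate Ppargc1a was at 0.35, Myh7 at -0.055 and Atp2a2 at -0.0052. Without MC2 and MCE2 the values were 0.17 for Ppargc1a, -0.006 for Hk2, -0.39 for Lpl, -1.41 for Myh7 and -1.11 for Atp2a2. Over the omissions of 1 library the ranges were -1.88 to 0.78 for Ppargc1a, -0.37 to 0.34 for Lpl, -0.57 to 0.10 for Fbxo32, -1.64 to 0.94 for Myh7, -0.12 to 0.30 for Myh2, -1.18 to 0.59 for Atp2a2, -2.19 to 0.14 for Sln and -0.016 to 0.84 for Hk2. Medians changed sign in some setting in 28 of 44 lists. The causes were not tested. A nuclear depth of 841153 to 4334813 counts per muscle library limits what can be seen in genes of low level.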

Other observations

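MCE lay above all 9 other muscle libraries in 32 genes (0.262%) and below them in 26 (0.212%), fewer than the 112 and 68 in which MC lay below or above all others. The 4 described here were named after their values were seen and are not clock genes. Pla2g2a, which encodes a secreted phospholipase, stood at 145.5, 192.5 and 144.8 CPM in MCE, at 56.0, 98.5 and 69.8 CPM in MC and at 43.4 to 103.9 CPM over MH and MHE (log2 1.11 against MC, SE 0.31, adjusted p = 0.9999 from edgeR). Prkab2, the gene of a regulatory subunit of the energy sensor AMPK, stood at 103.0, 111.2 and 92.5 CPM in MCE against 30.3, 48.3 and 75.3 CPM in MC and 17.3 to 72.0 CPM over MH and MHE. Grb10, which encodes an adaptor that dampens insulin receptor signalling, stood at 187, 168 and 149 CPM in MCE and at 128, 140 and 86.1 CPM in MC. Hdac5, the gene of a histone deacetylase that restrains muscle gene programmes, lay below, at 84.2, 74.6 and 72.8 CPM in MCE against 95.3, 107 and 103 CPM in MC and 97.1 to 143 CPM over MH and MHE. None of these passed the test.

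Rn60_1_2212.4, on chromosome 1 from 221158098 to 221158792 in the deposited table, took 1 of 2 very different levels in the muscle libraries. It stood at 33753 to 75306 CPM in MC1, MC3, MCE1, MCE3, MHE2 and MHE3 and at 92.5 to 389 CPM in MC2, MCE2, MHE1 and all 3 MH libraries.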
